A study of Drosophila melanogaster with 3 samples.

Results

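The genes described here encode digestive enzymes of the larval gut of Drosophila melanogaster: trypsins, Jonah serine proteases, the serine protease Ser6, amylases and lysozymes. They were chosen by name (names ending in Try, Jon followed by a digit, Amy-, Lys plus a capital letter, and Ser6). The name rule uses no measured value, but genes and lists were chosen with earlier results of these data known. The names found 37 genes among 14161 in the tables, and 36 of them had at least 1 count per 1000000 transcript counts (CPM) in at least 1 group, as did 11447 of all genes. The gene left out was deltaTry, which is listed at 0 in all 3 groups, and gammaTry, with 1.78 CPM in metafemales, was the kept gene closest to the limit. The naming rule also covers maltases (Mal-A, Mal-B) and the lipase Mag. No row of the tables carries those names, and the values of these genes under their older names are given apart, near the end.

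RNA of larvae of the third instar, from stocks kept at 20 degrees, was sequenced from metafemales, males and females. Metafemales have 1 more X chromosome than a normal female, and males carry a single one. The sources used here give no stock, cross or age within the instar. Each group is 1 pooled value per transcript over 3 biological repeats, so a difference between groups has no replicate check, no p-value can be given, and "higher" or "lower" describes these 3 pooled values. Whole larvae were measured, and in such samples fewer cells of a type and less RNA per cell cannot be told apart. The library totals inferred from the values ran from 31.6 to 112 M transcript counts. Intervals below are 95% exact binomial intervals on the ratio of counts and cover counting error only.

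The larval midgut digests yeast protein and starch in its lumen. Trypsins cut proteins after lysine or arginine, and the Jonah genes encode related secreted serine proteases of the midgut. Amylases break starch down to maltose, which maltases split to glucose, and gut lysozymes break the cell walls of bacteria that the larva eats. Most of these genes stand in tandem clusters of close relatives, so near-identical copies can share or split sequencing reads.

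The whole set took 20500.3 CPM (2.05% of all transcript counts) in metafemales, 14243 CPM (1.42%) in males and 14119 CPM (1.41%) in females. The metafemale value was the highest of the 3 for 25 of the 36 genes (69.4%), against 23.2% of all 11447 genes. Among the 25 is gammaTry, which reached 1 CPM in metafemales alone and was kept only through that group. The male value was the lowest of the 3 for 18 of the 36 genes (50.0%), against 28.6% of all genes. These shares hold for the values as deposited. They were not counted again with the other scalings used below, which raise metafemales against both other groups. Between genes, levels can be compared per kilobase of exon. On that scale Jon65Aiv led in metafemales with 4739 CPM per kb, ahead of Jon66Ci with 3935 and Jon65Aiii with 2448. In males Jon66Ci (4032 CPM per kb) was followed by LysS (2493) and Jon65Aiv (2235), and in females Jon66Ci (3388) by Jon65Aiv (2191) and Jon25Biii (1741). Both Jon66Ci and Jon65Aiv were thus among the 3 highest in every group, while the remaining place differed.

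**Figure D1:**
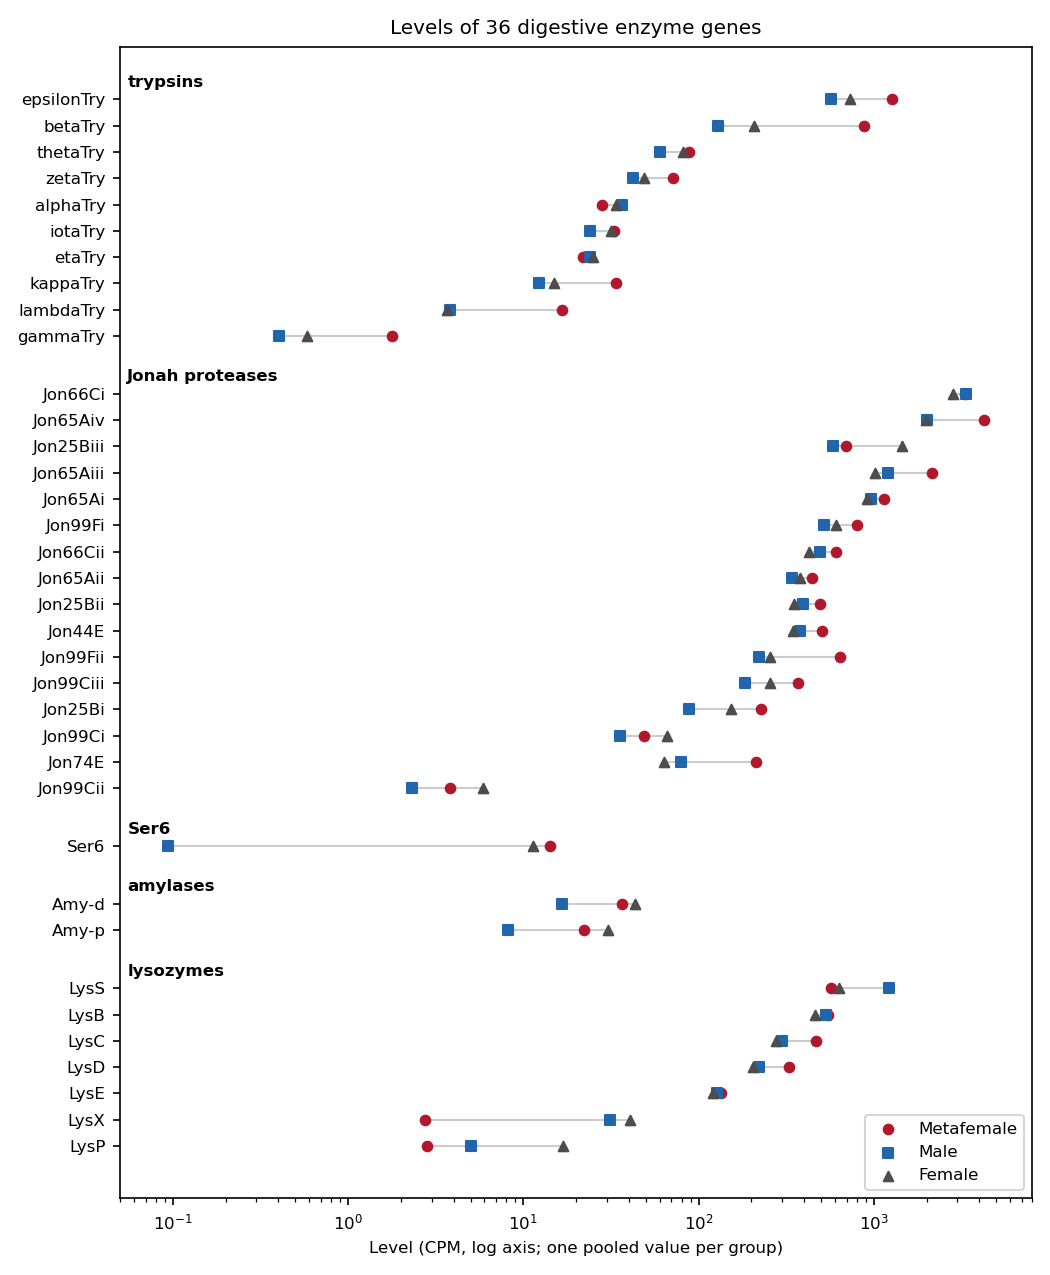
Level of each of the 36 genes in metafemales (red circles), males (blue squares) and females (grey triangles), in CPM on a log axis, 1 pooled value per group with no error bar, grouped by family. Red circles lie to the right for betaTry, lambdaTry, Jon74E and Jon99Fii, while LysX and LysP have their lowest values in metafemales and Ser6 has 0.0939 CPM in males.

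Metafemales against females. In metafemales 7 of the 36 genes were at least 2-fold higher than in females, all of them serine proteases, 3 were at least 2-fold lower and 26 were within 2-fold. Over all genes kept, 4.75% were at least 2-fold higher and 10.4% at least 2-fold lower. Fold changes were taken as log2 of CPM + 1, a scale on which changes of low genes appear smaller than they are. Their median was 0.36 over the 36 genes and -0.20 over all 11447. Scaling by the median of ratios shifted the log2 ratio of the groups by 0.42 and gave 11 higher and 2 lower genes. Of all genes, 8.88% were then higher and 4.19% lower. Scaling on autosomal genes shifted the log2 ratio by 0.50 and gave 15 and 2, beside 9.82% and 3.65% of all genes. The median of the 36 genes minus that of all genes lay between 0.43 and 0.81 over the main setting and 12 alternatives.

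Trypsins took 2449 CPM in metafemales and 1179.5 CPM in females, 2.08-fold more. Of the 10 kept genes, 3 were at least 2-fold higher, 0 lower and 7 within 2-fold, with a median log2 fold change of 0.67. betaTry had 877 CPM in metafemales, 129 in males and 207 in females. Metafemales stood apart from both other groups, at 4.23-fold the female level (4.19 to 4.27) and 6.82-fold the male level. lambdaTry had 16.6 CPM in metafemales, 3.80 in males and 3.68 in females, and kappaTry had 33.8, 12.2 and 14.9 CPM in the same order. These were 4.51-fold (4.19 to 4.87) and 2.26-fold higher in metafemales than in females, while males lay within 2-fold of females for both. With 5 CPM added in place of 1, kappaTry was just within 2-fold (log2 fold change of 0.96). epsilonTry, the trypsin gene with the highest level per kilobase in all groups, had 1277 CPM in metafemales, 567 in males and 733 in females. It held 52.1% of the trypsin sum in metafemales and 62.1% in females, and its 1.74-fold higher level in metafemales was short of the 2-fold limit as deposited. With median-of-ratios scaling epsilonTry passed it (log2 fold change of 1.22), as it did with autosomal scaling, and zetaTry did with autosomal scaling (1.03).

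The trypsin genes kept lie in 1 cluster on arm 2R, and neighbours in it differed. betaTry adjoins epsilonTry, which adjoins alphaTry, and alphaTry had 28.2 CPM in metafemales, 36.6 in males and 33.7 in females. The level of betaTry was 31.1 times that of alphaTry in metafemales, 3.52 times in males and 6.14 times in females. Along the cluster the log2 fold changes of metafemales over females ran from -0.25 (alphaTry) to 2.08 (betaTry). thetaTry had 88.4 CPM in metafemales, 60.6 in males and 81.1 in females. zetaTry had 71.7, 42.2 and 49.1 CPM, iotaTry 32.9, 24.2 and 31.5, and etaTry 22.0, 23.9 and 25.0, in the same order. All of these were within 2-fold of females, and the values of alphaTry and etaTry, below females as deposited, were above them with both other scalings. gammaTry had 1.78 CPM in metafemales, 0.404 in males and 0.580 in females, and CG30031, a neighbouring trypsin-like gene, is listed with the same values. gammaTry was 3.08-fold higher in metafemales than in females before 1 CPM was added (2.52 to 3.75), and within 2-fold on CPM + 1. It passed 2-fold with 0.1 CPM or no value added (1.47 and 1.62) and with both other scalings (1.07 and 1.12). The gamma and delta copies are near-identical, and their single values are uncertain.

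Jonah proteases were the largest family, with 15924 CPM in metafemales and 11100.4 CPM in females (1.43-fold). Of 16 genes, 4 were at least 2-fold higher, 1 lower and 11 within 2-fold, with a median of 0.50. Jon65Aiv had 4284 CPM in metafemales, 2021 in males and 1980.3 in females, and its neighbour Jon65Aiii had 2142, 1200.2 and 1014 CPM. In both genes males and females were close, and metafemales were 2.16-fold and 2.11-fold above females. The other members of that cluster on arm 3L differed less: Jon65Ai had 1151 CPM in metafemales, 958 in males and 913 in females, and Jon65Aii had 447, 342 and 378 CPM. A like contrast stood between the adjacent genes of arm 3R. Jon99Fii had 639 CPM in metafemales, 221 in males and 257 in females (2.49-fold over females, 2.46 to 2.51), and Jon99Fi had 802, 518 and 609 CPM (1.32-fold).

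Jon74E was the Jonah gene with the highest fold, with 214 CPM in metafemales, 79.5 in males and 63.5 in females (3.37-fold, 3.31 to 3.44). The tables hold a second transcript of this gene, the 1 that its current RefSeq model retains, with 3.25 CPM in metafemales, 2.52 in males and 2.91 in females. With that transcript the log2 fold change of metafemales over females was 0.12 in place of 1.74, so the call for Jon74E rests on the transcript model.

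Jon25Biii was the Jonah gene at least 2-fold lower in metafemales, at 698 CPM in metafemales, 583 in males and 1440.1 in females. Females were the high group there, and both others were at least 2-fold below them as deposited. The adjacent Jon25Bii had 491 CPM in metafemales, 394 in males and 348 in females, and Jon25Bi had 227, 88.2 and 154 CPM, so the 3 genes of this cluster on arm 2L had 3 different orders of groups. With the other scalings Jon25Biii stayed below females but within 2-fold (log2 fold changes of -0.62 and -0.55).

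The remaining Jonah genes were within 2-fold in metafemales. Jon66Ci had 3298 CPM in metafemales, 3379 in males and 2839 in females, and Jon66Cii had 608, 492 and 429 CPM. Jon44E had 505 CPM in metafemales, 379 in males and 347 in females. Among the adjacent Jon99C genes, Jon99Ciii had 368 CPM in metafemales, 184 in males and 256 in females, while Jon99Ci had 48.9, 35.6 and 65.8 CPM and Jon99Cii 3.80, 2.31 and 5.88 CPM. Males had the lowest value in all 3 genes of that cluster. Jon99Cii and Jon99Ciii are close copies, so a read could be placed on either.

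**Figure D2:**
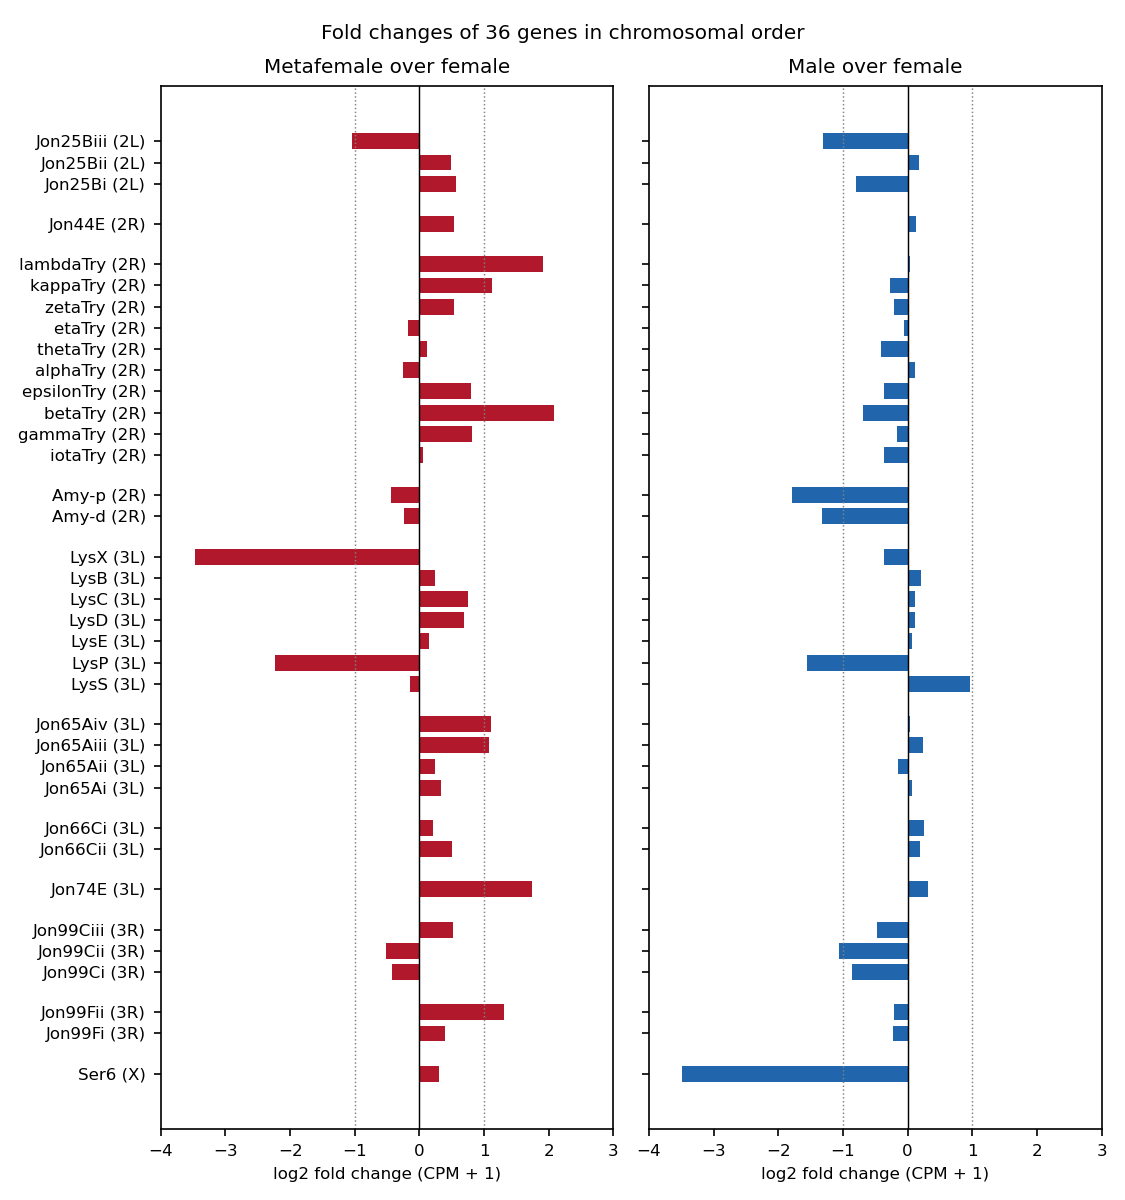
Log2 fold change (CPM + 1) of each of the 36 genes, metafemales over females on the left and males over females on the right, in chromosomal order with the chromosome arm in parentheses, gaps between clusters and dotted lines at 2-fold. Neighbours differ: betaTry (2.08) stands beside epsilonTry (0.80), and LysX (-3.47) and LysP (-2.23) stand apart from the 5 other lysozyme genes, which range from -0.14 to 0.75 in metafemales.

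Lysozymes differed among themselves. LysX, which is known from the gut at the onset of metamorphosis, had 2.73 CPM in metafemales, 31.1 in males and 40.5 in females. Metafemales were 14.8-fold below females (13.7 to 16.0) and 11.4-fold below males, and males were within 2-fold of females. LysP, known from the adult salivary gland, had 2.80 CPM in metafemales, 5.03 in males and 16.8 in females. It was 5.99-fold lower in metafemales (5.54 to 6.49) and 3.34-fold lower in males than in females. Both stayed more than 2-fold lower in metafemales than in females in every setting run.

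The midgut lysozyme genes between and beside them were within 2-fold. LysB had 546 CPM in metafemales, 533 in males and 463 in females, LysC had 468, 299 and 277 CPM, LysD had 329, 221 and 204 CPM and LysE had 134, 127 and 121 CPM. The 4 genes are near-identical and adjacent on arm 3L, and LysC is a pseudogene in the current annotation, so reads may be shared among them and their single values are uncertain. Their log2 fold changes ran from 0.15 to 0.75, and LysC and LysD passed 2-fold with both other scalings. LysS, at the end of the cluster, had 570.4 CPM in metafemales, 1227 in males and 630.3 in females. Its high group was the males, at 1.95-fold the female level, just short of 2-fold.

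The amylase genes Amy-d and Amy-p were highest in females as deposited. Amy-d had 36.7 CPM in metafemales, 16.7 in males and 43.4 in females, and Amy-p had 22.3, 8.17 and 30.5 CPM. The metafemale and female values were within 2-fold, and their order depended on scaling. Amy-d had a log2 fold change of -0.24 as deposited, 0.17 with median-of-ratios scaling and 0.25 with autosomal scaling. Amy-p had -0.43, -0.03 and 0.04 in the same order, so it was above females with autosomal scaling alone. The genes are close copies, and the level of Amy-d was 1.64 times that of Amy-p in metafemales, 2.04 times in males and 1.42 times in females.

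**Figure D3:**
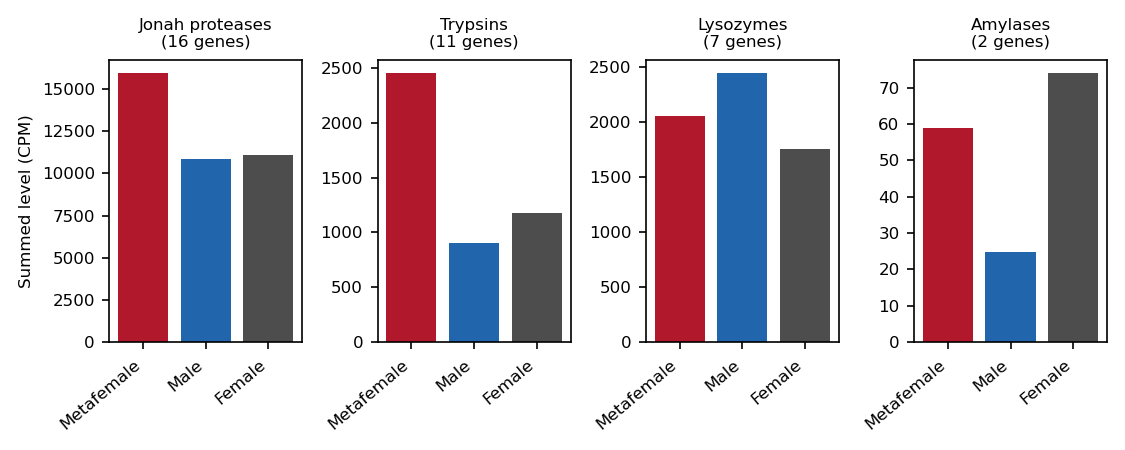
Summed level of each family in metafemales, males and females, in CPM on linear axes that start at 0, with all genes of the family summed and no error bar. Jonah proteases and trypsins are highest in metafemales, lysozymes in males (2443 CPM) and amylases in females (73.9 CPM).

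Males against females. No gene of the set was at least 2-fold higher in males than in females, 6 were at least 2-fold lower and 30 were within 2-fold. Over all genes kept, 16.8% were at least 2-fold higher and 1.89% at least 2-fold lower. The median log2 fold change was -0.19 over the set and -0.03 over all genes. Ser6, the 1 X-linked gene of the set, had 14.1 CPM in metafemales, 0.0939 in males and 11.3 in females. Males were thus far below both groups with more than 1 X chromosome, 120.5-fold below females (73.3 to 209), and metafemales were within 2-fold of females. The other genes lower in males were Amy-p (3.74-fold, 3.53 to 3.96), Amy-d (2.60-fold), LysP, Jon25Biii (2.47-fold) and Jon99Cii (2.55-fold). The log2 fold change of Jon99Cii was -1.06, and -0.57 with 5 CPM added. With near-identical copies left out, 3 genes were lower in males: Ser6, LysP and Jon25Biii. Trypsins took 899.7 CPM in males, 0.763-fold the female sum, and all 10 were within 2-fold. Jonah proteases took 10875 CPM, 0.980-fold the female sum.

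Metafemales against males. This comparison uses the same metafemale and male values as above. In metafemales 11 genes were at least 2-fold higher than in males and 2 lower, with 23 within 2-fold and a median of 0.55. Over all genes kept, 8.45% were higher and 29.6% lower, with a median of -0.42. With median-of-ratios and autosomal scaling 14.9% and 16.9% of all genes were higher, and 21.6% and 20.4% lower. Of the set, 19 and 20 genes were then higher and 1 was lower. The higher genes were Ser6 (150.3-fold, 91.5 to 261), betaTry, lambdaTry (4.37-fold), kappaTry (2.77-fold), epsilonTry (2.25-fold), Jon99Fii (2.90-fold), Jon74E (2.69-fold), Jon25Bi (2.57-fold), Jon65Aiv (2.12-fold), Amy-p (2.73-fold) and Amy-d (2.20-fold). With 5 CPM added Amy-d was within 2-fold (log2 fold change of 0.94). With the transcript that its current model retains, Jon74E was within 2-fold too (0.27), and 10 genes were higher. The lower genes were LysX and LysS (2.15-fold), of which LysX alone stayed lower by 2-fold with the other scalings.

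Markers of gut and other tissues differed between the groups as well. Their lists are small, and of all genes 4.75% were higher and 10.4% lower in metafemales than in females. Of 7 midgut markers, 1 was at least 2-fold higher in metafemales than in females, 0 were lower and 6 were within 2-fold, and their summed level was 553 CPM in metafemales, 317 in males and 404 in females. Myo61F, the brush border myosin of enterocytes, had 191 CPM in metafemales, 68.5 in males and 96.2 in females, whereas mex1, a midgut gene, had 32.8, 55.6 and 47.0 CPM. The marker past 2-fold was Vha100-4 (CG7678 in the tables), a proton pump subunit of the acid-secreting copper cells, with 37.5 CPM in metafemales, 3.80 in males and 6.15 in females. Summed muscle markers had 14492 CPM in metafemales, 2188 in males and 3326 in females, with 3 of 4 higher in metafemales than in females. Summed salivary glue genes had 1469 CPM in metafemales, 9869 in males and 6647 in females, with 3 of 4 lower. Fat body markers summed to 23968, 20300.3 and 21059 CPM in the same order, with 1 of 4 higher and 1 lower and a median log2 fold change of -0.91. Lsp1beta carried most of the metafemale sum, with 17148 CPM in metafemales and 4342 in females, and the other 3 markers (Lsp2, Fbp2 and Fbp1) were 1.86-fold, 1.89-fold and 5.46-fold lower in metafemales. Adult markers (ninaE, Acp26Aa and Acp70A) summed to 0.103 CPM or less in every group. The part of tissue makeup or larval stage in the values of the digestive genes was not tested.

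The genes now named maltases and magro were looked up by transcript accession after the tables were seen. In metafemales 4 of 9 kept maltase genes were at least 2-fold higher than in females, 0 were lower and 5 were within 2-fold. Of all genes, 4.75% were higher and 10.4% lower. Mal-A3 (LvpL in the tables) had 17.0 CPM in metafemales, 1.17 in males and 4.67 in females. Mal-A1 (LvpH) had 10.3, 1.88 and 4.24 CPM, Mal-A2 (LvpD) 6.49, 0.775 and 1.99 CPM and Mal-A4 (CG8693) 5.97, 0.817 and 1.86 CPM. These 4 genes shared 1 order, with metafemales highest and males lowest. The maltase gene with the most counts, Mal-A5 (CG30359), had 124 CPM in metafemales, 143 in males and 163 in females, so the summed level differed little (229, 207 and 236 CPM). magro (CG5932), which encodes a lipase secreted into the gut, had 564 CPM in metafemales, 228 in males and 277 in females (2.04-fold over females).

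Other digestion genes were placed in 8 lists, which include nutrient and gut hormone regulators and gut transcription factors. Of their 96 kept genes, 16 passed 2-fold upward in metafemales against females (4.75% of all genes), 11 were lower (10.4% of all genes) and 69 within 2-fold, with a median of 0.10. The lower share of the 8 lists pooled was near that of all genes as deposited. With autosomal scaling it was above the 3.65% of all genes. That pool holds 18 regulators, with 1 higher and 0 lower, and 11 gut transcription factors, with 0 higher and 1 lower. Glycosidases and lysozyme-like genes had 4 of 10 higher and 2 lower. The alpha-mannosidase genes LManVI (CG9468) and LManV (CG9466) had 365 and 226 CPM in metafemales, 11.2 and 7.97 in males and 28.4 and 17.5 in females, and LManIII (CG9463) had 13.2 CPM in metafemales, 1.01 in males and 1.66 in females. They were 12.9-fold, 12.9-fold and 7.96-fold above females, beyond any gene of the named families, although LManII (CG6206) had 208 CPM in metafemales, 147 in males and 147 in females. tobi, an alpha-glucosidase gene that responds to insulin and sugar, had 21.4 CPM in metafemales, 0.800 in males and 7.39 in females. The lower genes were CG8492 (19.9 CPM in metafemales, 43.7 in males and 57.0 in females) and Amyrel, an amylase relative (4.46, 5.30 and 11.8 CPM).

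Carboxypeptidases had 4 of 14 higher and 2 lower, against 4.75% and 10.4% of all genes. CG17633 had 893 CPM in metafemales, 204 in males and 312 in females, CG8560 had 844, 235 and 342 CPM, CG8562 had 76.9, 10.3 and 18.2 CPM and CG14820 had 21.2, 5.46 and 5.18 CPM. Metafemales were the high group in each, and males and females were within 2-fold of each other. The lower genes were CG12374, with 0.863 CPM in metafemales, 0.685 in males and 18.6 in females, and CG4408, with 6.87, 28.9 and 40.2 CPM. CG12374 reached 1 CPM in females alone, so the filter kept it only through its high group. Among other serine proteases 3 of 22 were higher, spheroide (67.0 CPM in metafemales, 10.8 in males and 18.0 in females), CG31265 (18.9, 4.51 and 6.40 CPM) and CG9673 (182, 86.7 and 75.6 CPM). The 2 lower ones were CG11529, at 4.32 CPM in metafemales, 121 in males and 90.4 in females, and CG11912, at 255, 1611 and 1169.9 CPM. Like LysX, both were far lower in metafemales than in either other group.

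Lipases were the list with the lowest median (-0.93), with 1 of 10 higher, 3 lower and 6 within 2-fold. Of all genes, 4.75% were higher and 10.4% lower, and in lists this small single genes set the share. CG6277 had 1.56 CPM in metafemales, 12.1 in males and 30.0 in females, CG6283 had 4.69, 14.4 and 56.2 CPM and CG6271 had 0.193, 0.716 and 8.99 CPM. In these 3 lipase genes males were also at least 2-fold below females. CG6271 reached 1 CPM in females alone, so the filter kept it only through its high group. CG6295 was the higher one (21.5 CPM in metafemales, 4.77 in males and 8.14 in females). Aspartyl proteases had 2 of 5 higher, Bace (18.0, 1.70 and 6.41 CPM) and CG17134 (126, 39.8 and 62.6 CPM), and 0 lower. Peritrophic matrix genes, which encode the lining of the midgut, had 1 of 6 higher (Peritrophin-A, 36.6 CPM in metafemales, 12.2 in males and 17.3 in females) and 1 lower (Mur29B, 35.3, 105 and 77.4 CPM).

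Regulators of nutrition and of the gut are the remaining lists of the 8. Of 18 nutrient and gut hormone regulators 1 was at least 2-fold higher in metafemales than in females and 0 were lower, against 4.75% and 10.4% of all genes. It was sug (sugarbabe), a sugar-responsive transcription factor gene, with 59.0 CPM in metafemales, 12.4 in males and 26.2 in females. Of 11 gut transcription factors 0 were higher and 1 was lower, nub, with 5.29 CPM in metafemales, 11.0 in males and 13.4 in females. GATAe, the endodermal GATA factor, had 19.2 CPM in metafemales, 8.38 in males and 12.2 in females, and lab, a homeobox gene of copper cells, had 3.02, 1.02 and 1.12 CPM. lab was 2.69-fold higher in metafemales than in females before 1 CPM was added (2.34 to 3.12), and is not among those counted on CPM + 1. In males against females the 8 lists had 2 of 96 genes higher, the carboxypeptidase gene CG8564 and the aspartyl protease gene CG10104, and 14 lower, against 16.8% and 1.89% of all genes. CG8564 had 48.1 CPM in males and 0.193 in females, and CG10104 had 2.47 CPM in males and 0.0381 in females. Both reached 1 CPM in males alone, so the filter kept them only through their high group.

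**Figure D4:**
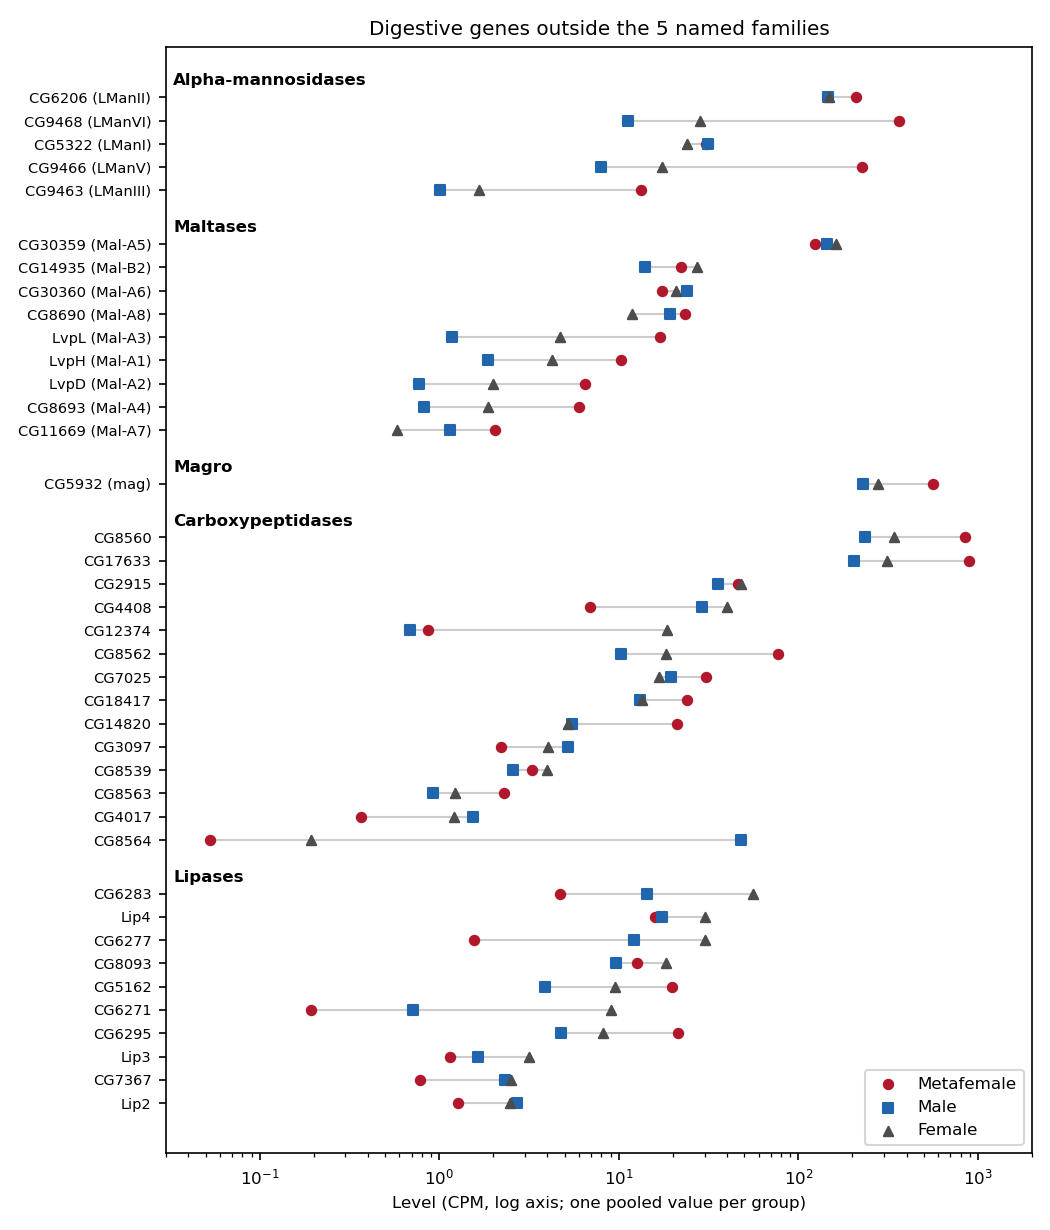
Levels of alpha-mannosidase, maltase, magro, carboxypeptidase and lipase genes in metafemales (red circles), males (blue squares) and females (grey triangles), in CPM on a log axis, with current symbols in parentheses and no error bar. LManVI, LManV and CG17633 have their highest values in metafemales, and CG6277, CG6283 and CG6271 their lowest.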

How the data were processed

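Total RNA of larvae of the third instar was made into TruSeq libraries, per the labels' protocols, and processed by the authors with TopHat and HTSeq on build dm3, per the submitters' processing notes. The sources used here give no tool version, annotation release or strand setting. Each deposited column holds, for 1 group, the fraction of counts that each transcript took, over 19040 autosomal and 3698 X-linked transcripts. They were multiplied by 1000000 (CPM). In every column, 100% of the values below 0.05 CPM could be written as whole multiples of 3 step sizes added together (relative tolerance 1e-05), so a column was read as a mean over 3 libraries, with the counting error of 269 M (metafemale), 169 M (male) and 226 M (female) counts.

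The transcript with the highest mean stood for its gene. Genes with at least 1 CPM in any column were kept, fold changes were taken on CPM + 1, and 2-fold was the call. Names and gene order came from RefSeq (Release 6) and exon lengths from Ensembl 115, both of another build, so no coordinates are given. All 37 genes were matched. eater (CG6124), put in the midgut marker list in error, was not counted. Genes and lists were chosen with earlier results of these data known. In other lists the 3 highest and 3 lowest genes were to be named, and those past 2-fold are. Python 3.11.15, numpy 2.4.6, pandas 2.3.3 and scipy 1.17.1 were used, and depth recovery, intervals and calls were tested on simulated data.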

Additional observations from a re-analysis of the deposited data

How the results depend on the processing

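No paired analysis was possible because each group has 1 pooled column, and for the same reason no library could be left out. Joining copies by protein identity was not run. Over 12 alternatives no gene called 2-fold changed sign. In males over females both other scalings left the counts at 0 higher and 6 lower. In metafemales over females median-of-ratios and autosomal scaling gave 11 and 15 higher genes against 7, and medians of 0.78 and 0.86 against 0.36. The share of all genes that was higher was 8.88% and 9.82%, against 4.75% as deposited. In metafemales over males these scalings gave 19 and 20 higher against 11, 1 and 1 lower against 2, and medians of 1.02 and 1.13 against 0.55. Of all genes, 14.9% and 16.9% were higher and 21.6% and 20.4% lower, against 8.45% and 29.6% as deposited. In the other digestion lists (metafemales over females) autosomal scaling gave 7 lower genes against 11, beside 3.65% of all genes. Median-of-ratios and autosomal scaling gave these lists 31 and 34 higher genes against 16, beside 8.88% and 9.82% of all genes. Their medians were 0.48 and 0.56 against 0.10. With at least 10 CPM in any column that median was 0.28. Alternatives chosen after seeing the data were 3. Adding the genes now named Mal-A, Mal-B or mag gave 12 higher genes and a median of 0.50 in metafemales over females. Leaving out near-identical copies gave 3 lower genes in males over females against 6, and a median of 0.45 in metafemales over males. The transcript of Jon74E is treated in the results. The spread between larvae was not measured, and among the 36 genes the intervals of counting error were wide for gammaTry and for the male value of Ser6.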
